A study of Homo sapiens with 9 samples.

Results

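The subject is the set of human genes that encode the proteasome, its assembly factors and its regulators, followed in HepG2 cells after withdrawal of glutamine (Gln). Members were all rows of the deposited expression table whose gene symbol is PSM, a letter from A to G and a number, with pseudogenes left out. The rule used names and no measured value, but the set was chosen with earlier results of these data known. It gave 46 of the 22587 genes in the table. PSMA8 and PSMB11, which encode a testis form and a thymus form of core subunits, are not analysed here.

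HepG2 is a human liver tumor line with hepatocyte-like features. RNA from whole cultures was sequenced in 3 groups of 3 libraries. One group was kept in medium with Gln added, and the other two were deprived of Gln for 12 h or 24 h. All cells were grown in high-glucose medium with serum, and none carried a knockdown or transgene according to the labels. GlutaMAX, a stable glutamine dipeptide, is named as the supply of the Gln added group in the sample labels, whereas the treatment protocol that all 9 samples share names it as a supplement of the glutamine-free medium, so what the deprived cells received cannot be read from the labels without doubt. The labels do not say that the 3 libraries of a group came from separate cultures, so the p-values measure only the spread between these libraries, which may be technical.

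The proteasome degrades proteins that carry ubiquitin chains. Its core is a barrel of stacked rings, in which the alpha subunits gate the entry and the beta subunits hold the peptidase sites, and regulatory caps with ATPases recognise, unfold and feed in the substrates. In cells that lack enough proteasome activity, the transcription factor NFE2L1 is known to raise subunit genes together, and under interferon the constitutive catalytic subunits are partly replaced by inducible ones that favour peptides for antigen presentation.

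Most proteasome genes fell after Gln withdrawal. Levels are given in FPKM, a share of the library's fragments scaled to gene length, and fold changes are differences of group means of log2(FPKM + 0.1). A member was called higher or lower where the adjusted p of limma, with Benjamini-Hochberg adjustment over all genes tested, was under 0.05. All 46 members passed the filter on low values, a mean of 0.5 FPKM or more, as did 11880 genes in all. At 12 h, 32 members were lower, 2 were higher and 12 did not pass the test. The same fit called 31.0% of all genes tested lower and 29.1% higher, against 69.6% of the members lower. At 24 h, 36 members were lower, 2 were higher and 8 did not pass, where 31.7% of all genes were lower and 33.0% higher, against 78.3% of the members lower. The median member fell by 0.22 on the log2 scale at 12 h and by 0.26 at 24 h, while the medians of all genes tested were -0.02 and 0.01. The comparisons at 12 h and 24 h use the same 3 libraries with Gln added, so their values are given side by side and are not independent of each other.

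**Figure D1:**
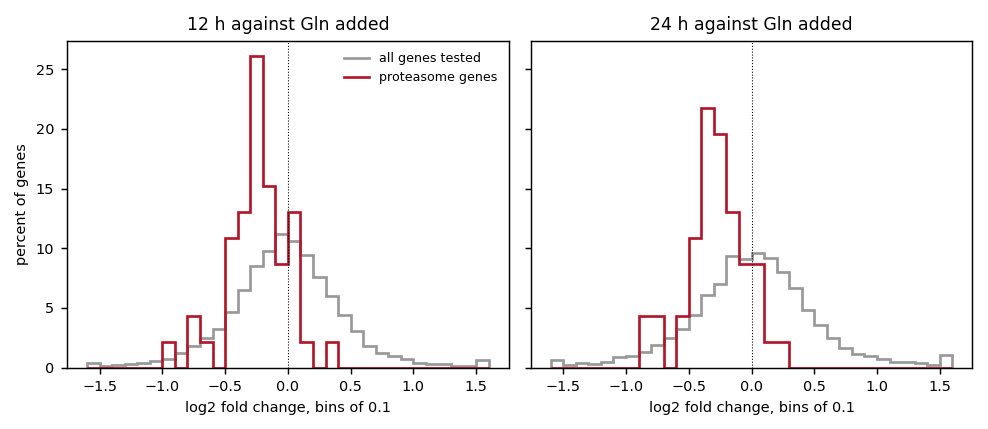
Share of genes (percent, vertical axis) in bins of 0.1 of the log2 fold change against Gln added (horizontal axis) at 12 h and 24 h, for the 46 proteasome genes (red) and the 11880 genes tested (grey), with values beyond the axis placed in the end bins. The red outline is centred left of 0 at both times, with medians of -0.22 and -0.26, and the grey outline is centred near 0.

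Most members are well expressed, so they were also counted among genes of that kind. Of the genes averaging 10 FPKM or more, 37.4% were lower at 12 h and 39.8% at 24 h. Of the 42 members above that level, 29 (69.0%) were lower at 12 h and 33 (78.6%) at 24 h. Counted without a model, every deprived library lay below every library with Gln added for 34 members at 12 h and 36 at 24 h, against 34.4% and 34.1% of all genes tested. At 12 h the 2 members called higher were PSMF1 and PSMG2, and the 12 that did not pass were PSMA5, PSMB1, PSMB6, PSMD6, PSMD7, PSMD8, PSMD9, PSMD12, PSMD14, PSME4, PSMG3 and PSMG4. At 24 h the 2 called higher were PSMF1 and PSMD12, and the 8 that did not pass were PSMD6, PSMD7, PSMD8, PSMD9, PSME4, PSMG2, PSMG3 and PSMG4.

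Added over the members, the level was 3588 ± 26.9 FPKM (SD, n = 3) in the Gln added group, 3048 ± 57.5 after 12 h of deprivation and 2916 ± 126 after 24 h. The share of all gene fragments that fell on the members was 0.646%, 0.549% and 0.532% on average in the same order. FPKM is a share of the sequenced RNA, so less RNA of a gene per cell and more RNA of other genes cannot be told apart, nor can fewer expressing cells and less RNA per cell. The median coefficient of variation of a member between replicates was 2.42% with Gln added, 3.70% after 12 h and 4.58% after 24 h, and PSMB9 had the largest in each group. The size of the change varied among the deprived libraries. Replicate 2 at 24 h held the lowest value of its group for 33 of 46 members, and replicate 1 at 24 h the highest for 31. Without replicate 2 at 24 h, 34 members were lower at 24 h.

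**Figure D2:**
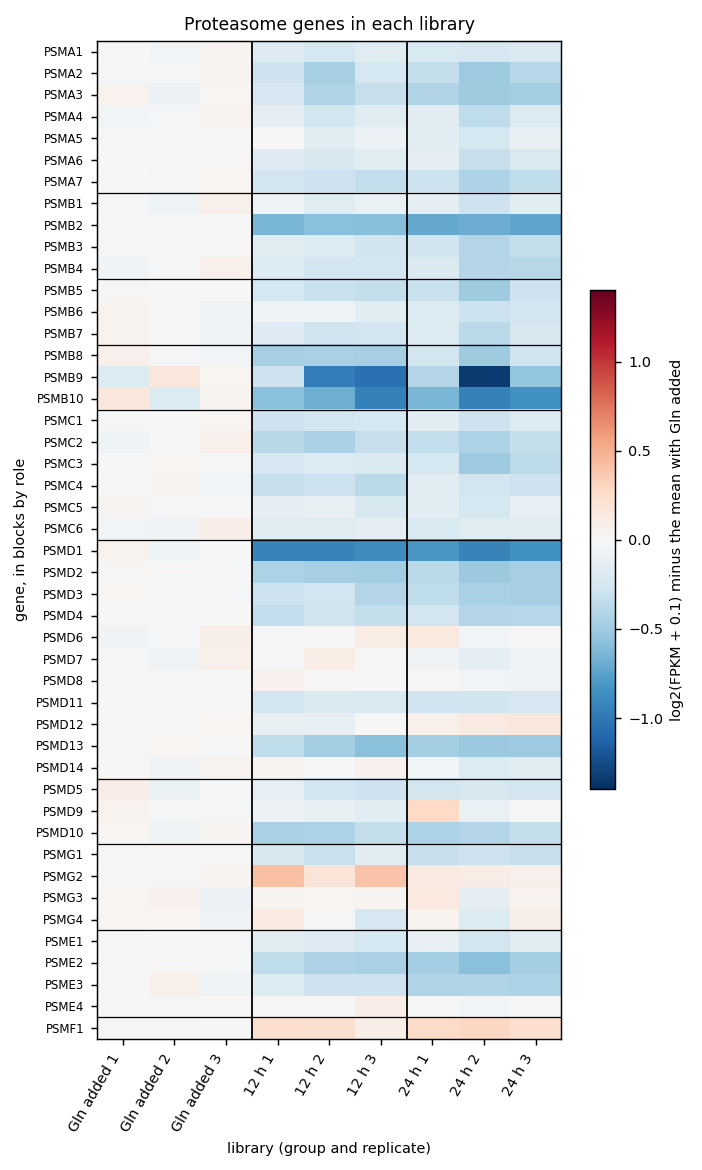
Each row is a proteasome gene, in blocks by role, and each column is 1 of 9 libraries. Color shows log2(FPKM + 0.1) minus the mean of the 3 libraries with Gln added. Most rows are blue in all 6 deprived libraries, PSMD1 and PSMB2 most evenly so, and PSMF1 and PSMG2 are the rows in red in all 6.

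Of the 14 constitutive core genes, 7 alpha and 7 beta, 11 were lower at 12 h and all 14 at 24 h, with median log2 fold changes of -0.23 and -0.30. The shares of all genes tested called lower were 31.0% at 12 h and 31.7% at 24 h. PSMA7, an alpha subunit, was the most abundant member per length in every group, with a mean of 330 FPKM in the controls that was 269 after 12 h and 257 after 24 h. Among the other alpha genes the fold changes ran from -0.08 (PSMA5, limma adjusted p = 0.153) to -0.33 (PSMA2) at 12 h, and from -0.17 (PSMA5) to -0.47 (PSMA3) at 24 h. The 7 constitutive beta genes kept the same order of mean FPKM in all 3 groups, from PSMB5 at the top to PSMB2 at the bottom. That order depends on gene length, which was 4528 bases for PSMB2 and 1243 for PSMB5 as solved from the FPKM. In fragments, PSMB2 had more than PSMB5 with Gln added (11679 to 11996 against 9642 to 10043 in a library).

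PSMB2 encodes a beta subunit without a peptidase site and lies on chromosome 1 (35599541 to 35641526, minus strand, GRCh38). Its levels were 74.2, 73.8 and 73.5 FPKM with Gln added, 47.3, 49.1 and 48.9 at 12 h, and 44.8, 45.6 and 44.1 at 24 h. The 3 groups did not overlap, and the replicates of each group lay close together. PSMB2 fell by 0.61 at 12 h (SE 0.031, limma adjusted p = 7.85e-08) and by 0.72 at 24 h (adjusted p = 1.40e-08), which was the largest fall in the constitutive core. The other beta subunits without a peptidase site, PSMB1, PSMB3 and PSMB4, had log2 fold changes of -0.11 to -0.24 at 12 h, and of -0.19 to -0.34 at 24 h.

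The constitutive catalytic subunits and their inducible counterparts were all lower by 24 h. PSMB5, which holds the chymotrypsin-like site, had 226, 222 and 222 FPKM with Gln added, 188, 180 and 177 at 12 h, and 180, 159 and 183 at 24 h. PSMB7, which holds the trypsin-like site, had 152, 148 and 142 FPKM, then 130, 121 and 123, then 129, 113 and 126. In both genes every deprived library was below every library with Gln added, with log2 fold changes of -0.30 and -0.37 for PSMB5 (limma adjusted p = 0.000455 and 8.78e-05) and of -0.24 and -0.27 for PSMB7 (adjusted p = 0.00213 and 0.00104). PSMB6, which holds the caspase-like site, had 136, 130 and 127 FPKM with Gln added, 126, 126 and 118 at 12 h, and 115, 107 and 109 at 24 h. Its 12 h libraries lay just under the controls and the change of -0.09 did not pass (limma adjusted p = 0.0966), whereas that of -0.25 at 24 h did (adjusted p = 0.000330).

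The inducible subunits had low levels in HepG2 cells and were called lower at each time, with median log2 fold changes of -0.74 and -0.77 over the 3 genes. PSMB8, the counterpart of PSMB5, had 16.9, 15.8 and 15.7 FPKM with Gln added, 11.7, 11.8 and 11.7 at 12 h, and 13.5, 11.4 and 13.3 at 24 h. PSMB10, the counterpart of PSMB7, had 14.02, 11.02 and 13.01 FPKM, then 8.36, 7.85 and 6.51, then 8.06, 6.49 and 6.98. Neither gene overlapped between deprived and control libraries. PSMB8 fell by 0.46 at 12 h and 0.34 at 24 h (limma adjusted p = 9.30e-05 and 0.000600), and PSMB10 fell by 0.74 and 0.81 (adjusted p = 0.000243 and 9.90e-05).

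PSMB9, the counterpart of PSMB6, was the rarest of them, with 43 to 135 fragments in a library. It had 2.95, 3.80 and 3.46 FPKM with Gln added, 2.76, 1.68 and 1.58 at 12 h, and 2.53, 1.27 and 2.28 at 24 h. Its deprived libraries were all lower than its controls, but 1 library at 12 h lay close to them. The fold change was -0.77 at both times (SE 0.25, limma adjusted p = 0.0215 at 12 h and 0.0200 at 24 h). The 12 h call was lost without Gln added replicate 2 (adjusted p = 0.0714) or 3 (0.0547) and without 12 h replicate 2 (0.0760) or 3 (0.0778). The 24 h call was lost without Gln added replicate 2 (limma adjusted p = 0.0669) or 3 (0.0513) and without 24 h replicate 2, where the fold change was -0.48 (adjusted p = 0.0650). With no filter on low values neither call passed (limma adjusted p = 0.0688 and 0.0635).

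Set against its constitutive counterpart in the same library, PSMB10 was 8.60% ± 1.02 of PSMB7 in the controls (SD, n = 3), 6.07% ± 0.668 after 12 h and 5.84% ± 0.361 after 24 h, with no overlap between deprived and control libraries. PSMB8 was 7.22% ± 0.224 of PSMB5 in the controls, 6.45% ± 0.214 after 12 h and 7.33% ± 0.146 after 24 h. Every library at 12 h lay below the controls in this ratio. At 24 h, 2 of the 3 libraries lay within the range of the controls, the other just above it. PSMB9 was 2.60% ± 0.389 of PSMB6 in the controls, 1.62% ± 0.489 after 12 h and 1.83% ± 0.554 after 24 h, and the groups overlapped. Whether the inducible genes fell more than the constitutive ones was not tested. PSMB8 and PSMB9 share a stretch of chromosome 6 (32840717 to 32844679, minus strand, and 32844136 to 32859851, plus strand), where their annotated exons overlap on opposite strands. The exons of PSMB10 (chromosome 16, 67934506 to 67936864, minus strand) overlap another gene on the same strand over 39.4% of their length.

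**Figure D3:**
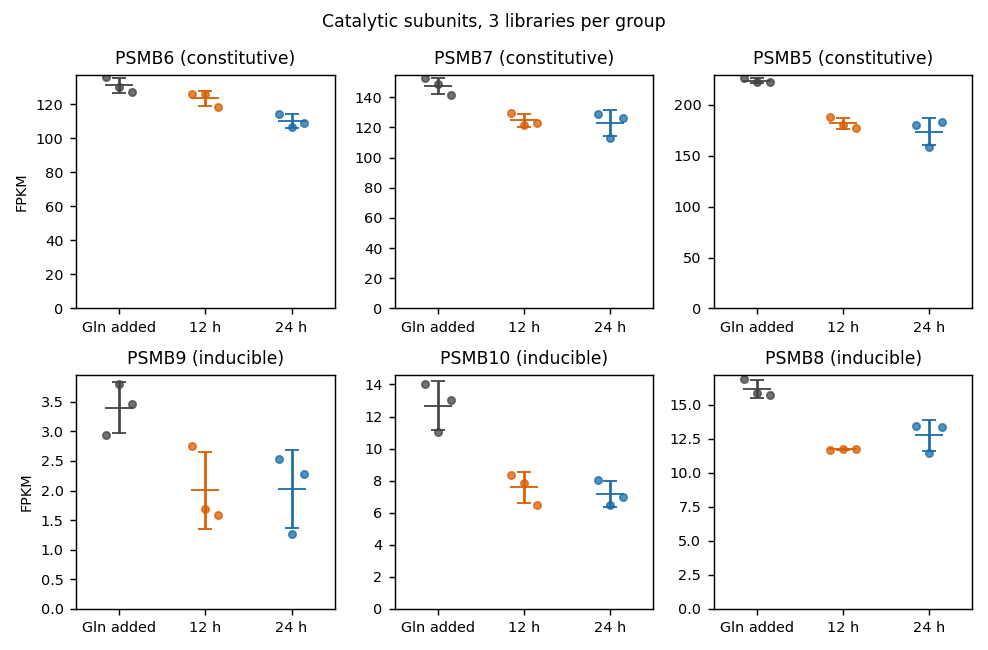
FPKM (vertical axis, from 0) of the constitutive catalytic subunits (top row) and of the inducible subunit that replaces each (bottom row) in the 3 groups. Points are libraries, and bars give the mean and SD of 3 libraries. PSMB10 falls from a mean of 12.7 to 7.57 and 7.18, and PSMB6 from 131 to 123 and 110.

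In the regulatory cap, the ATPase genes all passed the test as lower and the other subunits were mixed. All 6 ATPase genes, PSMC1 to PSMC6, fell by 0.16 to 0.38 on the log2 scale at 12 h, and by 0.17 to 0.37 at 24 h. PSMC2 had the largest change at 12 h, -0.38, and PSMC5 and PSMC6 the smallest, -0.16. For PSMC1, 76.1% of the annotated exon length lies over NRDE2 on the opposite strand and 13 pseudogene copies are annotated, so its counts may hold reads of other loci. Of the 11 other cap subunits, 6 were lower at 12 h, and 7 were lower and 1 higher at 24 h, with fold changes from -0.92 to 0.03 and from -0.86 to 0.12. This class held the deepest fall among all members, that of PSMD1, and also PSMD6, PSMD7 and PSMD8, which did not pass at 12 h or at 24 h and had fold changes between -0.08 and 0.03. PSMD3 and PSMD4 fell by 0.33 and 0.32 at 12 h and by 0.42 and 0.36 at 24 h, the latter being a receptor for ubiquitin chains, and the lid subunit PSMD11 fell by 0.23 and 0.26.

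PSMD1 encodes the scaffold subunit on which other cap subunits are mounted and lies on chromosome 2 (231056845 to 231173116, plus strand). It had 52.4, 48.6 and 50.9 FPKM with Gln added, 26.4, 26.4 and 27.5 at 12 h, and 28.8, 26.4 and 28.1 at 24 h. Every deprived library was thus far below the lowest control, and the mean fell by 47.2% at 12 h and fell by 45.2% at 24 h. The log2 fold changes were -0.92 (SE 0.044, limma adjusted p = 4.30e-08) and -0.86 (adjusted p = 4.19e-08). PSMD13, a subunit of the lid, was next among the cap subunits, with 46.3, 48.1 and 47.6 FPKM, then 37.0, 34.1 and 31.4, then 33.9, 33.0 and 33.3. Its groups did not overlap with the controls either, and it fell by 0.47 and 0.50 (limma adjusted p = 2.43e-05 and 1.16e-05). PSMD2, the second large scaffold, which docks ubiquitin shuttles, fell by 0.46 and 0.45 from a mean of 116 FPKM.

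PSMD14 is the deubiquitinase that strips chains from substrates as they enter. It had 84.8, 81.3 and 87.0 FPKM with Gln added, 87.2, 83.9 and 87.9 at 12 h, and 81.9, 73.6 and 75.5 at 24 h. At 12 h, replicate 2 lay among the controls and replicates 1 and 3 lay just above them. Of the 24 h libraries, 1 lay among the controls. Its fold change was 0.03 at 12 h (limma adjusted p = 0.544) and -0.13 at 24 h (adjusted p = 0.0240). The 24 h call was lost without Gln added replicate 1 (limma adjusted p = 0.0655) or 3 (0.0931) and without 24 h replicate 2 (0.0824) or 3 (0.0750), and it was -0.09 (adjusted p = 0.119) with FPKM rescaled to the same total. PSMD12, another lid subunit, had 20.9, 21.0 and 21.6 FPKM, then 19.7, 19.6 and 21.3, then 22.2, 23.0 and 23.6. It was the lone cap subunit called higher, by 0.12 at 24 h (limma adjusted p = 0.0378), and that call was lost without any of Gln added replicate 1 (adjusted p = 0.107), 2 (0.0912) or 3 (0.0539) and without 24 h replicate 2 (0.0803) or 3 (0.123). It was also lost under median-ratio scaling (limma adjusted p = 0.0586) and without a trended prior (0.0563).

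Among the chaperones that build the cap, PSMD10 (gankyrin) fell by 0.41 and 0.40 and PSMD5 by 0.22 and 0.25, while PSMD9 had fold changes of -0.11 and 0.06 that did not pass. The chaperones that build the core behaved unlike one another. PSMG1 and PSMG2 work as a pair in assembling the alpha ring. PSMG1 fell by 0.23 and 0.31 (limma adjusted p = 0.000908 and 8.07e-05). PSMG2, on chromosome 18 (12658043 to 12728945, plus strand), had 32.8, 32.4 and 33.9 FPKM with Gln added, 44.1, 37.3 and 43.4 at 12 h, and 35.9, 35.4 and 34.8 at 24 h. It stood above the controls in all 6 deprived libraries and most at 12 h, with fold changes of 0.33 (SE 0.058, limma adjusted p = 0.000585) and 0.10 (adjusted p = 0.157). The 24 h value passed without 12 h replicate 2 (limma adjusted p = 0.0305). PSMG3 and PSMG4, a second pair, had fold changes between -0.05 and 0.04 that did not pass. PSMG4 was the least abundant member per length, at a mean of 1.46 FPKM with Gln added. It was not the lowest in fragments, with 543 to 578 in a library with Gln added against 107 to 135 for PSMB9.

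The activators that dock on the core in place of the cap were lower with the exception of PSME4, which did not pass (0.04 and -0.02). PSME2, which with PSME1 forms the interferon-inducible activator, had 151, 152 and 148 FPKM with Gln added, 118, 111 and 109 at 12 h, and 108, 100 and 108 at 24 h. All 6 deprived libraries were well below the controls, and the fold changes were -0.41 and -0.51 (limma adjusted p = 9.11e-06 and 1.36e-06). For PSME2, 6 pseudogene copies are annotated. PSME1 fell by 0.19 and 0.18. PSME3, the nuclear activator, had 65.1, 68.6 and 62.7 FPKM, then 57.5, 53.4 and 53.5, then 48.7, 48.8 and 48.0, a stepwise order in which no group overlapped another. It fell by 0.26 at 12 h and by 0.43 at 24 h (limma adjusted p = 0.000404 and 7.03e-06).

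PSMF1, an inhibitor of the core, was called higher at each time. It lies on chromosome 20 (1113240 to 1189415, plus strand). It had 26.4, 27.2 and 26.9 FPKM with Gln added, 31.5, 31.4 and 28.7 at 12 h, and 32.5, 32.8 and 31.5 at 24 h. Every deprived library was above every control, with fold changes of 0.18 (SE 0.043, limma adjusted p = 0.00353) and 0.26 (adjusted p = 0.000280).

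**Figure D4:**
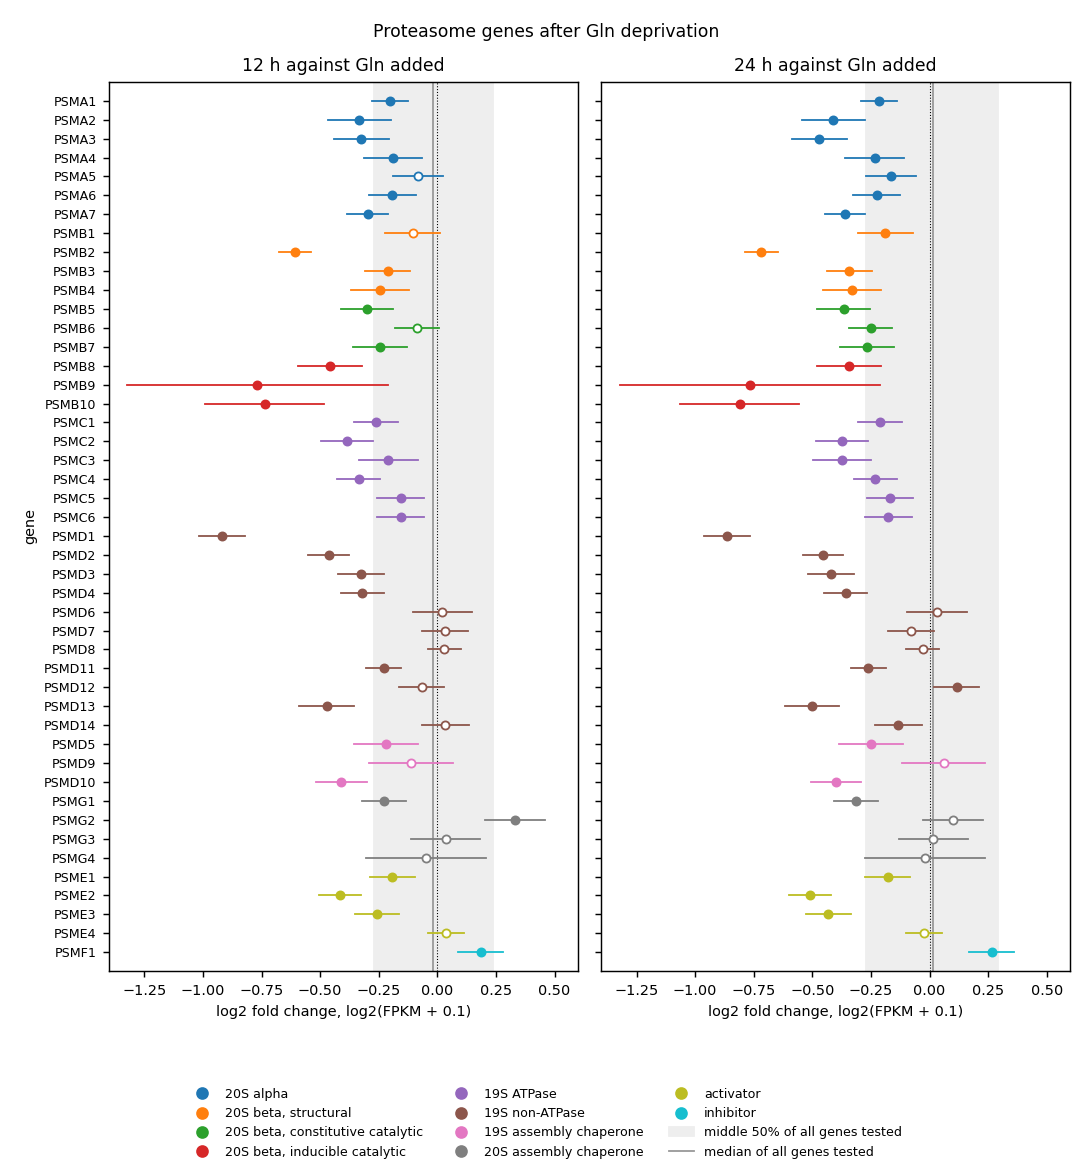
Log2 fold change against Gln added (horizontal axis) of each proteasome gene (vertical axis) at 12 h and 24 h. Points are estimates from 3 libraries per group, bars are 95% confidence intervals, filled points passed the test, color gives the role, and the grey band spans the middle 50% of all genes tested. PSMD1 is farthest left at -0.92 and -0.86, PSMB9 has the widest interval, and PSMF1 and PSMG2 are among the genes right of 0 at both times. PSMD12 is right of 0 and filled at 24 h.

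PSMB2, PSMB6, PSMD14, PSME3 and PSMG2 were lower at 24 h than at 12 h and PSMD12 was higher, 6 members in all, against 10.5% of all genes lower and 9.57% higher. The 5 lower are 10.9% of the members, near the share over all genes, so the count is no result about the members. The remaining 40 did not pass, and the median difference was -0.04. The count of 5 lower also depended on the scaling and on single libraries. It was 10 under median-ratio scaling, and 3 when only these 2 groups were fitted or without a trended prior. It was 0 without 24 h replicate 3, 1 without 12 h replicate 1, 3 without 24 h replicate 2 and 8 without 24 h replicate 1. The count of 1 higher was 0 without 12 h replicate 1 or 2 or without 24 h replicate 3, and 3 without 24 h replicate 2.

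Proteasome genes outside the PSM naming scheme were read from a list of 14, of which 8 were lower and 5 higher at 12 h, and 8 were lower and 3 higher at 24 h. Of all genes tested, 31.0% were lower and 29.1% higher at 12 h, and 31.7% were lower and 33.0% higher at 24 h. The list was chosen with earlier results of these data known, so its counts are a description. POMP, the maturation factor of the core, had 56.8, 58.1 and 57.9 FPKM with Gln added, 43.9, 43.4 and 46.3 at 12 h, and 46.8, 47.9 and 49.03 at 24 h. It fell by 0.37 and 0.27 (limma adjusted p = 8.53e-06 and 7.88e-05). The small cap subunit SEM1 fell by 0.27 and 0.35, the ubiquitin receptor ADRM1 by 0.25 and 0.22, the deubiquitinases USP14 by 0.16 and 0.19 and UCHL5 by 0.25 and 0.38, and the cap-binding protein PAAF1 by 0.41 and 0.47. ZFAND5 and ZFAND2A, zinc finger proteins that bind the proteasome, rose by 0.51 and 0.62 and by 0.41 and 0.35.

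Several regulators of subunit transcription rose while the subunit genes fell. Of the 14 genes tested in the list around NFE2L1, 7 were higher and 3 lower at 12 h, and 9 were higher and 4 lower at 24 h. The same fit called 29.1% of all genes tested higher and 31.0% lower at 12 h, and 33.0% higher and 31.7% lower at 24 h. This list too was chosen with earlier results known, and its counts are a description. NFE2L1 had 58.6, 60.8 and 60.5 FPKM with Gln added, 79.8, 82.0 and 78.3 at 12 h, and 84.0, 84.2 and 81.5 at 24 h. All deprived libraries stood above the controls, by 0.42 and 0.47 on the log2 scale (limma adjusted p = 1.93e-06 and 4.95e-07). NFE2L2, its relative in the oxidative stress response, rose by 0.51 and 0.45. Their dimer partners, the small MAF proteins, rose most, with 2.03 and 2.21 for MAFF (mean 1.96 FPKM in the controls, 8.27 after 12 h, 9.38 after 24 h), 1.35 and 1.19 for MAFG, and 0.88 and 1.02 for MAFK. DDI2, the protease that releases active NFE2L1, rose by 0.26 and 0.23, and VCP, which extracts NFE2L1 from the endoplasmic reticulum membrane, fell by 0.27 and 0.31. Also in the list, NFE2L3 fell by 0.27 and 0.30 and NFYA by 0.22 and 0.44. NFYC was called lower at 24 h alone, by 0.22. NFE2L1 is controlled through its protein, which RNA levels do not show.

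**Figure D5:**
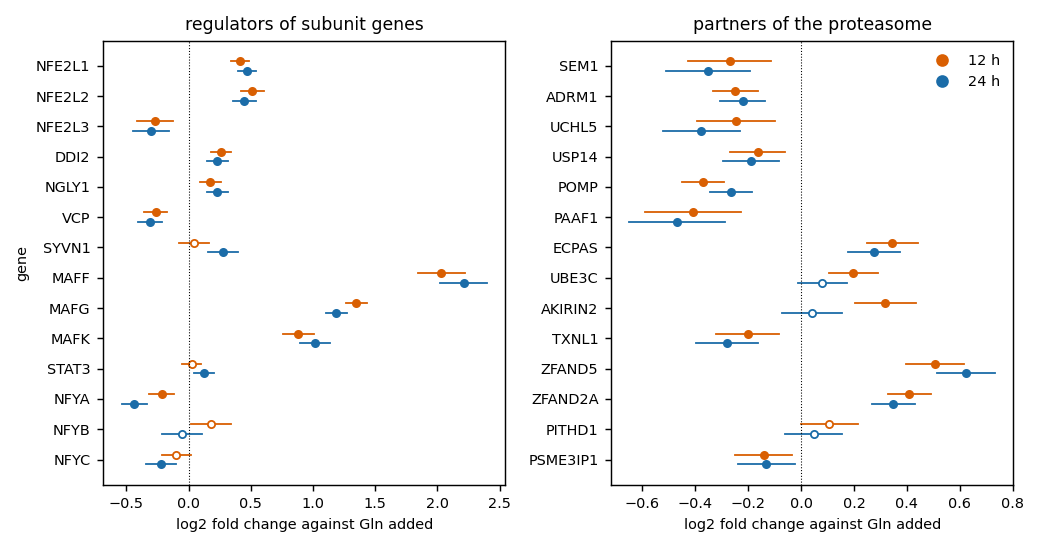
Log2 fold change against Gln added (horizontal axis) at 12 h (orange) and 24 h (blue) for regulators of subunit genes (left) and for proteasome partners outside the PSM scheme (right). Bars are 95% confidence intervals and filled points passed the test. MAFF, MAFG and MAFK lie farthest right at 0.88 to 2.21, and PAAF1 is farthest left among the partners at -0.41 and -0.47.

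NFE2L1 and NFE2L2 bind the antioxidant response element, so the members' promoters were searched for its core, TGACNNNGC on either strand, within the 250 bases before the RefSeq gene start. Of 40 members with a promoter in the RefSeq table (GRCh38.p14), 11 held it (27.5%), against 12.4% of the 9543 tested genes with a promoter. The windows below are shown because they include the members called higher that hold the motif, PSMG2 and PSMD12, beside members called lower, and PSMF1 held none. Each is written in the direction of the gene with the motif in capitals. Their places are chr17:38752601-38752680 plus for PSMB3, chr17:39980717-39980796 plus for PSMD3, chr14:24136074-24136153 plus for PSME1, chr14:24146767-24146796 minus for PSME2, chr21:39183592-39183671 minus for PSMG1, chr18:12658689-12658718 plus for PSMG2 and chr17:67366697-67366776 minus for PSMD12. The windows of PSME2 and PSMG2 lie before the RefSeq start but inside the span that GENCODE gives the gene.
PSMB3: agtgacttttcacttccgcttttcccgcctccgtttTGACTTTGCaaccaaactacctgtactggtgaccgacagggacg
PSMD3: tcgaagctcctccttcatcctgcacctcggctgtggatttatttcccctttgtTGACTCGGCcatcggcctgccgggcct
PSME1: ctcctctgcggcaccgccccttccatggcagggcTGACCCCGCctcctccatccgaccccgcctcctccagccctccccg
PSME2: cccctggactgTGACCCAGCcagcaccgcc
PSMG1: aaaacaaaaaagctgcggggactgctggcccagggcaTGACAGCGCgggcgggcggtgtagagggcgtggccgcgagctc
PSMG2: cagtttcccgTGACCCCGCggccgctctgc
PSMD12: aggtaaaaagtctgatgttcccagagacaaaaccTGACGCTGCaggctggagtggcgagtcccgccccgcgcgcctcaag

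Of the 11 members with it, 7 were lower at 12 h and 7 at 24 h, with medians of -0.21 and -0.25. Of the 29 without it, 22 and 24 were lower, with medians of -0.24 and -0.26. The shares of all genes tested called lower were 31.0% and 31.7%. PSMG1 and PSMG2, the alpha ring pair, both hold the motif. PSMG1 was called lower at both times, and PSMG2 was called higher at 12 h alone. Whether the motif goes with the direction of change was not tested. The CCAAT box, a common promoter element searched on either strand, was in 17 of 40 members (42.5%) against 35.6% of tested genes. TGATGNAA, the core of the element bound by C/EBP and ATF factors, was in 0 of 40 members, against 1.31% of tested genes. A match is a run of letters in this window and not a measured binding site.

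The hepatocyte-like profile of the libraries was checked with 7 hepatocyte genes, which do not identify the line itself. Their summed level was 7451 to 7552 FPKM in the controls, 6535 to 6604 after 12 h and 6316 to 6645 after 24 h. At each time 5 of the 7 were lower, where 31.0% (12 h) and 31.7% (24 h) of all genes tested were lower. Of 9 markers of blood, fibroblast, endothelial and bile duct cells, 7 were in the table, with summed levels of 165 to 167 FPKM, 103 to 116 and 104 to 110. Nearly all of that was KRT19 and CD68, which were lower at both times, and the other 5 (COL1A1, COL3A1, PECAM1, VWF and KRT7) reached at most 0.343 FPKM in any library. The part of these marker changes in the members' changes was not tested.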

How the data were processed

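RNA-seq of 9 libraries in 3 groups of 3 was used. Per the labels, the authors extracted total RNA with TRIzol. The labels name a VAHTS library kit and the paper's methods a strand-specific NEBNext kit, so whether counting used strand is not settled here. According to the methods and the submitters' processing notes, the authors aligned reads with STAR to GRCh38 and counted them with HTSeq, with R 3.2.0 also named. The deposited values are FPKM per gene, computed by the authors, with no counts beside them.

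Whole fragments were recovered from the FPKM steps for 100% of 22587 genes, each value lying within at most 0.12 of a whole number, which gave library totals of 29621270 to 36261546 fragments. Replicates of a group differed by more than sampling noise in every pair. Genes averaging 0.5 FPKM or more over the 9 libraries were tested with limma 3.58.1 in R 4.3.3 on log2(FPKM + 0.1), with all 9 libraries and 3 groups in 1 fit, a trended prior and Benjamini-Hochberg adjustment over 11880 genes, threshold 0.05. The study's methods name DESeq2 on counts, which could not be used as the main test on FPKM. The smallest exact permutation p with 3 libraries against 3 is 0.1. Scripts were tested on simulated data. Gene positions are from GENCODE v44 on GRCh38 and promoters from RefSeq GRCh38.p14. Levels between genes depend on the gene lengths the authors used.

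Members given library by library are the 6 catalytic subunits, PSMF1, PSMD14 and, per comparison, the called members without group overlap with the largest changes, up to 5 each way against Gln added and 3 each way between times. The members and gene lists were chosen with earlier results of these data known. Alternatives were other pseudocounts and filters, rescaled FPKM, other fits, voom on the recovered fragments, a replicate block and leaving out each library. Some genes of the lists are not reported here.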

Additional observations from a re-analysis of the deposited data

Results flagged for a closer look

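The effects of 12 h and 24 h of Gln deprivation differed for 6 members by the test of the difference itself, in the limma fit with Benjamini-Hochberg adjustment over 11880 genes. Of all genes tested, 10.5% were lower and 9.57% higher between the times, so a count of 6 among 46 members does not set them apart. PSMG2 was lower at 24 h than at 12 h by a log2 difference of -0.23 (adjusted p = 0.0183), and all 3 libraries at 24 h were below those at 12 h. PSME3 differed by -0.17 (limma adjusted p = 0.0165), PSMB6 by -0.17 (adjusted p = 0.0188), PSMD14 by -0.17 (adjusted p = 0.0263) and PSMB2 by -0.11 (adjusted p = 0.0312), each again lower in 3 of 3 libraries. PSMD12 was higher at 24 h by 0.18 (limma adjusted p = 0.0148), in 3 of 3 libraries. None of the 6 calls held in every alternative. That of PSMB2 was lost without Gln added replicate 1 (limma adjusted p = 0.0558), 2 (0.0501) or 3 (0.0542), 12 h replicate 2 (0.0962) or 3 (0.0652) or 24 h replicate 3 (0.103), and also with FPKM rescaled to the same total (0.0687), with only the compared groups fitted (0.0942) and without a trended prior (0.0657). That of PSMB6 was lost without 12 h replicate 1 (limma adjusted p = 0.0722) or 2 (0.0685) or 24 h replicate 2 (0.0549) or 3 (0.0613). That of PSMG2 was lost without 12 h replicate 1 (limma adjusted p = 0.0730) or 3 (0.0562) or 24 h replicate 3 (0.0619). That of PSMD12 was lost without 12 h replicate 1 (limma adjusted p = 0.0591) or 2 (0.0585) or 24 h replicate 3 (0.0586). That of PSME3 was lost without 12 h replicate 1 (limma adjusted p = 0.0669) or 24 h replicate 3 (0.0555). That of PSMD14 was lost without 12 h replicate 1 (limma adjusted p = 0.0812) or 3 (0.0662) or 24 h replicate 2 (0.0782) or 3 (0.0866), and also with no filter on low values (0.0582), with only the compared groups fitted (0.0561) and without a trended prior (0.0589).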

How the results depend on the processing

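Over 19 alternatives, the members called lower numbered 30 to 34 at 12 h and 34 to 36 at 24 h. At 24 h, 1 member was called higher under median-ratio scaling or a prior without a trend, and 1 to 3 when single libraries were left out. The median at 24 h was -0.21 with FPKM rescaled to the same total. Between 24 h and 12 h, 10 members were lower under median-ratio scaling and 3 with only the compared groups or without a trend, 0 to 8 were lower and 0 to 3 higher when single libraries were left out, and the median ran from -0.078 to -0.018. The causes were not tested. Of all genes called between the times, 47.7% were higher, against 33.4% under median-ratio scaling and 54.3% after rescaling. Of the member calls, 2 of 34 at 12 h (PSMA4 and PSMB9), 3 of 38 at 24 h (PSMB9, PSMD12 and PSMD14) and 6 of 6 between the times were lost in at least 1 alternative, and 0 changed sign. PSMB6 at 12 h passed with the replicate block (limma adjusted p = 0.0434). With a replicate block, 2 members were higher and 34 lower at 12 h, 2 and 36 at 24 h, and 1 and 6 between the times. Same-numbered libraries correlated between -0.14 and 0.28 in their deviations, and 3 of 9 correlated best with their own number, so the numbers were not taken to pair them. PSMB9 had the fewest fragments of the members described library by library, 43 to 135 in a library.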

Other observations

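The shares of all genes tested that were called were 29.1% higher and 31.0% lower at 12 h, and 33.0% higher and 31.7% lower at 24 h, and the counts in the lists of genes that deliver substrates to the proteasome or use its products are given beside them as a description. Of 12 ubiquitin genes and shuttle receptors, 2 were higher and 4 lower at 12 h, and 3 were higher and 2 lower at 24 h. RAD23B, a shuttle receptor, fell by 0.33 and 0.35 on the log2 scale (limma adjusted p = 0.000148 and 7.56e-05). BAG6, which escorts mislocalised proteins to degradation, rose by 0.28 and 0.42.

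Of 13 genes of antigen processing, 3 were higher and 4 lower at 12 h, and 3 were higher and 3 lower at 24 h. The aminopeptidase ERAP2 fell by 0.35 and 0.45. The class I gene HLA-E rose by 0.26 and 0.31, in the libraries in which PSMB8, PSMB9 and PSMB10 fell. NLRC5, a transactivator of class I genes and of PSMB9, fell by 0.46 at 12 h (limma adjusted p = 0.00192) and had a fold change of 0.17 at 24 h that did not pass (adjusted p = 0.144). These are RNA levels in 3 libraries per group, and peptide presentation was not measured.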
